A study of Mus musculus with 12 samples.

Results

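The mouse genes of 20 cytosolic aminoacyl-tRNA synthetases, 16 mitochondrial synthetases and 3 accessory proteins of the cytosolic multisynthetase complex, 39 of the 47069 genes in the count matrix, were followed in tibia shaft RNA. The genes were taken by symbol, and a mitochondrial enzyme was recognised by a symbol ending in 2, with the exception of *Aimp2*. Male mice aged 8 weeks were studied to ask how the lifelong lack of sclerostin affects a mouse model of osteogenesis imperfecta. Jrt;Sost-ko mice carried *Col1a1* Jrt/+ and *Sost* -/-. Jrt;Sost-het mice carried *Col1a1* Jrt/+, which is the genotype that the labels give, and were heterozygous for the *Sost* deletion according to the text of the study. WT mice carried neither allele. There were 4 mice in each of the 3 groups, with 1 library per mouse, all on a mixed FVB/C57BL6 background, and the *Sost* deletion was present in every cell from conception. WT animals were bred in a colony of their own, and effects of genotype and of colony cannot be told apart. Jrt;Sost-ko mice were set against Jrt;Sost-het mice (the *Sost* comparison), Jrt;Sost-het against WT mice (the Jrt comparison) and Jrt;Sost-ko against WT mice (the combined comparison). The members were chosen by name with the fold changes of the *Sost* comparison known from an earlier analysis of these libraries, in which *Iars* stood out. The *Sost* comparison is therefore a description of the members, with counts of calls for the background but no p-value printed for a member.

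Aminoacyl-tRNA synthetases join each amino acid to its own tRNA, the step that sets which amino acid a codon stands for. Most amino acids have a cytosolic enzyme for translation of nuclear genes and a second enzyme, also encoded in the nucleus, for the few proteins that mitochondria make themselves. Several cytosolic enzymes sit in a large complex with the scaffold proteins *Aimp1*, *Aimp2* and *Eef1e1*. When uncharged tRNA accumulates or the endoplasmic reticulum is loaded with misfolded protein, phosphorylation of eIF2 raises the translation of ATF4, a transcription factor that is known to induce several cytosolic synthetases along with amino acid transporters and enzymes of amino acid synthesis. Osteoblasts, which secrete large amounts of collagen, use this pathway.

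Reads counted on genes ranged from 24366061 to 44418863 per library. *Sost*, the gene of sclerostin, had between 26.8 and 72.3 CPM, counts scaled to an equal library size, in WT and Jrt;Sost-het mice and between 0.326 and 1.28 CPM in Jrt;Sost-ko mice. All 9 osteoblast and all 6 osteocyte markers had counts in every mouse. The osteoblast markers summed to between 42729 and 70491 CPM in Jrt;Sost-ko, 35401 and 56893 CPM in Jrt;Sost-het and 23099 and 58657 CPM in WT mice, and the osteocyte markers to between 464 and 887, 397 and 747, and 332 and 807 CPM. The groups overlapped for both, with the highest limits in Jrt;Sost-ko mice. The osteocyte markers included *Sost* itself, which added at most 1.28 CPM to the sum in Jrt;Sost-ko mice. The summed level of 16 skeletal muscle markers varied from 31.7 CPM in Jrt;Sost-ko mouse 4 to 32522 CPM in WT mouse 4, and overlapped between the groups. The 7 epidermal markers summed to 118 and 561 CPM in WT mice 3 and 4 and to at most 2.65 CPM elsewhere. Blood and marrow transcripts remained, with 8 erythroid markers summing to between 15389 and 30649 CPM over the mice. The 9 neutrophil markers summed to between 16404 and 30501 CPM. The RNA came from flushed tibia shafts of mixed cell types. Fewer cells of a type and less RNA per cell therefore cannot be told apart. The mice are numbered from 1 to 4 within a group, and the numbers pair no mice.

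All 39 members were expressed and passed the filter on low counts in every comparison, with counts between 113 for *Pars2* and 25567 for *Lars2*. The cytosolic enzymes were the more abundant class. Per kilobase of exon sequence, their median level was 19.4 CPM, against 3.09 CPM per kilobase for the mitochondrial enzymes. *Hars* and *Nars*, the histidyl and asparaginyl enzymes, had the highest cytosolic levels per length, with 46.4 and 44.1 CPM per kilobase. *Cars*, the cysteinyl enzyme, and *Eprs*, the fused glutamyl-prolyl enzyme, had the lowest, with 8.40 and 9.39 CPM per kilobase. These ranks depend on the length of annotated exon sequence, which was 18102 bases for *Eprs* and 2447 for *Hars*. Without division by length, *Eprs* had a mean of 170 CPM and *Hars* 114 CPM. Among the mitochondrial enzymes, *Lars2* (leucyl) and *Iars2* (isoleucyl) had the highest means, with 12.9 and 8.58 CPM per kilobase. *Nars2* (asparaginyl) and *Ears2* (glutamyl) were lowest with 1.24 and 1.28 CPM per kilobase. The first place of *Lars2* rests on few libraries. It ranged over the mice from 6.51 to 51.9 CPM per kilobase, highest in WT mouse 3, and *Iars2* from 7.33 to 9.38. The accessory proteins lay between the class medians, with 15.0 CPM per kilobase for *Aimp2*, 8.43 for *Aimp1* and 6.95 for *Eef1e1*.

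The members varied little from mouse to mouse. The SD of log2 CPM over the 12 mice had a median of 0.10 for the cytosolic enzymes, ranging from 0.07 for *Lars* to 0.15 for *Hars*. It had a median of 0.11 for the mitochondrial enzymes, from 0.06 for *Cars2* to 0.83 for *Lars2*, and of 0.20 over all 17245 genes of the fit with 12 mice. *Lars2* was the only member with an SD above 0.30. Summed per kilobase, the cytosolic enzymes exceeded the mitochondrial ones by 5.73 ± 1.30 times in WT, 6.57 ± 0.226 times in Jrt;Sost-het and 6.90 ± 0.266 times in Jrt;Sost-ko mice (SD, n = 4). Without *Lars2* these ratios were 7.60 ± 0.369, 7.41 ± 0.285 and 8.01 ± 0.308, so that the wide spread of the WT ratio came from this 1 gene.

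Promoter sequences were examined because ATF4 binds, as a dimer with C/EBP proteins, to an element of the form TGATGNAA. RefSeq windows of 250 bases before to 50 bases after the transcription start were at hand for 30 of the 39 members, namely 13 cytosolic, 14 mitochondrial and 3 accessory genes (GRCm38.p6). Read on both strands, the element was present in 5 of the 13 cytosolic windows, those of *Aars*, *Gars*, *Iars*, *Tars* and *Yars*, which charge alanine, glycine, isoleucine, threonine and tyrosine. It was present in 0 of 14 mitochondrial and 0 of 3 accessory windows, and in 3.97% of all 32851 windows in the table. The sequences around a match in each of the 5 genes are shown so that the elements can be compared; each runs 5′ to 3′ on the strand of the gene, with the matched bases in capitals. A match on the opposite strand reads TTGCATCA or TTTCATCA here.

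Aars, chr8:111033840-111033869, plus strand, 10 bases after the start: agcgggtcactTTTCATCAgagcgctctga
Gars, chr6:55037960-55037989, plus strand, 30 bases before the start: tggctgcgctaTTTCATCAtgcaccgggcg
Iars, chr13:49682126-49682155, plus strand, 8 bases after the start: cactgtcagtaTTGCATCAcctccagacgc
Tars, chr15:11399655-11399684, minus strand, 15 bases before the start: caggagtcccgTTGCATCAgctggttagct
Yars, chr4:129189895-129189924, plus strand, 4 bases after the start: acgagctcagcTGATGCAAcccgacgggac

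The distances refer to the first matched base. The matches shown for *Aars*, *Iars* and *Yars* therefore lay just downstream of the annotated start, and the others just upstream. CACGTG, the E-box, was present in the windows of *Aars*, *Farsb*, *Iars* and *Tars*, in that of *Ears2* among the mitochondrial genes and in 7.15% of all windows. CCAAT was found in 7 of 13 cytosolic, 6 of 14 mitochondrial and 3 of 3 accessory windows, against 37.4% of all windows. CCGGAAGTG was found in none of the 30 members with a window and in 2.03% of all windows. A match describes the letters of a window and is no measurement of binding.

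In the *Sost* comparison every cytosolic synthetase had a higher fitted level in Jrt;Sost-ko mice, by a small amount. The median log2 difference over the 20 genes was 0.13, with a range from 0.003 for *Qars* to 0.24 for *Iars*, whereas the median over all 16739 tested genes was 0.001 and 50.4% of them were higher. Of the 39 members, 0 passed an adjusted p under 0.05 in edgeR, where 0.00597% of all tested genes did, which is *Sost* alone. At an unadjusted p under 0.05 the members numbered 8, beside 5.02% of all genes. DESeq2 called 1 member, *Iars*, and limma-voom 0. The groups did not overlap for 7 members, all of them higher in Jrt;Sost-ko mice, beside 1.79% of all genes higher and 1.4% lower without overlap. The members were chosen with this comparison known, so nothing is read from these counts.

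**Figure D1:**
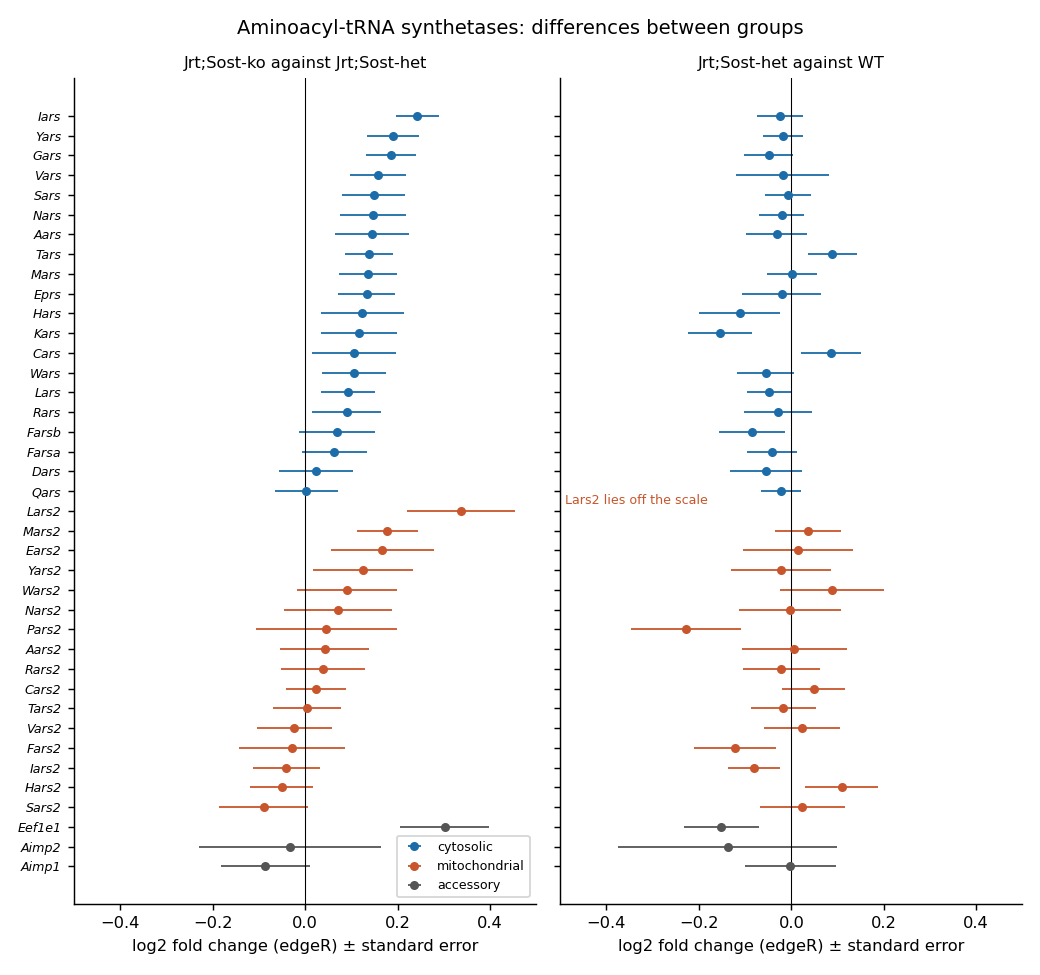
Log2 fold change with its standard error for each member, the *Sost* comparison on the left and the Jrt comparison on the right (n = 4 mice per group), coloured by class. All 20 cytosolic points lie right of 0 on the left side, whereas 3 of 20 do on the right side, where *Lars2* at -1.58 is off the scale.

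The isoleucyl enzyme *Iars* (ENSMUSG00000037851, chromosome 13 from 49682100 to 49734267) had the largest cytosolic difference. Its level was 111.5, 119.7, 115.0 and 116.5 CPM in the 4 Jrt;Sost-ko mice and 96.2, 100.7, 96.1 and 98.2 CPM in the 4 Jrt;Sost-het mice. The lowest Jrt;Sost-ko mouse was above the highest Jrt;Sost-het mouse, and also above the highest WT mouse, since WT mice had 100.5, 97.0, 105.8 and 96.7 CPM. The log2 difference was 0.24 (standard error 0.05), or 1.18-fold. It was 0.24 with the muscle markers as a covariate and 0.23 without Jrt;Sost-ko mouse 4, the library with the least muscle RNA.

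*Yars*, the tyrosyl enzyme, had 71.5, 76.3, 66.4 and 74.2 CPM in Jrt;Sost-ko mice and 62.9, 62.8, 62.5 and 64.8 CPM in Jrt;Sost-het mice, a log2 difference of 0.19 (standard error 0.06). Jrt;Sost-ko mouse 3 came closest to the Jrt;Sost-het mice. *Gars*, the glycyl enzyme, had 124.6, 134.3, 119.7 and 123.3 CPM against 107.9, 110.9, 116.5 and 106.2 CPM, which is 0.19 higher on the log2 scale (standard error 0.05). Jrt;Sost-ko mouse 3 was again the lowest of its group, and Jrt;Sost-het mouse 3 the highest of the other. *Tars*, the threonyl enzyme, had 72.1, 79.6, 72.8 and 79.2 CPM against 71.0, 68.0, 69.0 and 68.2 CPM, a log2 difference of 0.14 (standard error 0.05). Here the groups were apart by little more than 1 CPM. *Vars*, the valyl enzyme, had 216.2, 207.3, 218.2 and 242.0 CPM against 207.1, 197.7, 195.1 and 192.2 CPM, a log2 difference of 0.16 (standard error 0.06). The lowest Jrt;Sost-ko and the highest Jrt;Sost-het mouse for *Vars* differed by less than 1 CPM.

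**Figure D2:**
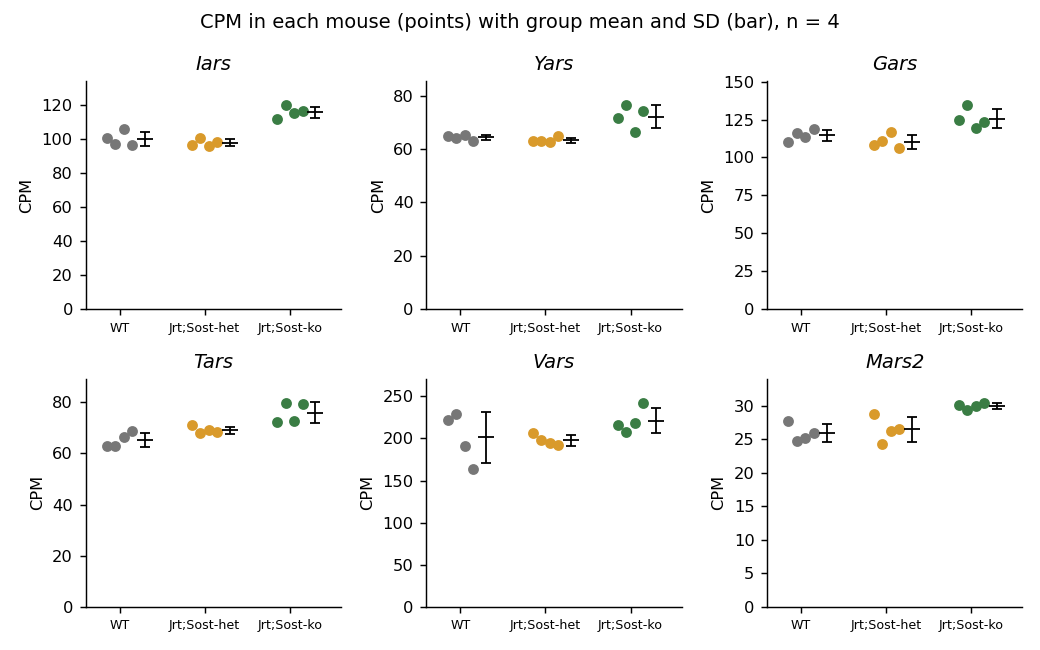
CPM of the 6 synthetases without overlap in the *Sost* comparison, with a point for each mouse and the group mean and SD beside the points (n = 4). For *Iars*, *Yars*, *Gars*, *Tars* and *Mars2* the 4 Jrt;Sost-ko mice also lie above every WT mouse, whereas WT mice spread from 163.6 to 229.5 CPM for *Vars*.

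In GRCm38, *Yars* lies on chromosome 4 from 129189760 to 129219607 and *Gars* on chromosome 6 from 55038007 to 55079500. *Tars* lies on chromosome 15 from 11382301 to 11399665 and *Vars* on chromosome 17 from 35000987 to 35016322. All 39 members are annotated as protein coding.

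The other 15 cytosolic enzymes overlapped between the groups. The smallest differences were those of *Qars* (glutaminyl) at 0.003, *Dars* (aspartyl) at 0.02, *Farsa* at 0.06 and *Farsb* at 0.07, the last 2 being the subunits of the phenylalanyl enzyme. *Aars*, which also has the element in its window, had 192.3, 227.5, 186.5 and 213.6 CPM in Jrt;Sost-ko mice and 184.6, 203.9, 180.3 and 173.5 CPM in Jrt;Sost-het mice. Its Jrt;Sost-ko mice 1 and 3 fell within the range of the other group. The sum of all cytosolic enzymes was 462 ± 25.9 CPM per kilobase in Jrt;Sost-ko, 423 ± 9.11 in Jrt;Sost-het and 438 ± 18.3 in WT mice (SD, n = 4). The ranges of this sum touched, since the lowest Jrt;Sost-ko mouse and the highest Jrt;Sost-het mouse had 435.8 and 435.9 CPM per kilobase.

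Within the Jrt;Sost-ko group the mice were not alike. Relative to the mean of all 12 mice, the cytosolic median of mouse 4 was 0.16 higher on the log2 scale, whereas mice 1, 2 and 3 were at 0.03, 0.06 and -0.005. Jrt;Sost-het mice lay between -0.09 and -0.02 and WT mice between -0.08 and 0.01. Mouse 4 of the Jrt;Sost-ko group had the lowest summed muscle markers, at 31.7 CPM, and WT mouse 4, the lowest WT mouse for the cytosolic enzymes, had the highest. The 6 markers of dividing cells moved the other way, with 3579 CPM in Jrt;Sost-ko mouse 4, the highest of its group, and 2390 CPM in WT mouse 4, the lowest. Osteoblast and osteocyte markers were lowest of the Jrt;Sost-ko group in mouse 4, at 42729 and 464 CPM. Erythroid markers were highest of the Jrt;Sost-ko group in mouse 4, at 25328 CPM, and lowest of the WT group in mouse 4, at 16983 CPM. Neutrophil markers had 24377 and 16404 CPM in these 2 mice, again the highest and the lowest of their groups. The part of bone cells, of erythroid and neutrophil cells and of dividing cells in the cytosolic levels was not tested. Without Jrt;Sost-ko mouse 4 the median difference from Jrt;Sost-het mice was 0.10 and 17 of 20 genes were higher, and with the muscle markers as a covariate it was 0.09 with 18 of 20 higher. Without Jrt;Sost-het mouse 2 the cytosolic genes without overlap numbered 9, with *Aars*, *Lars*, *Mars* and *Sars* added. A smaller group separates more readily, and the share of all genes in this setting was not computed, so nothing is read from this number.

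**Figure D3:**
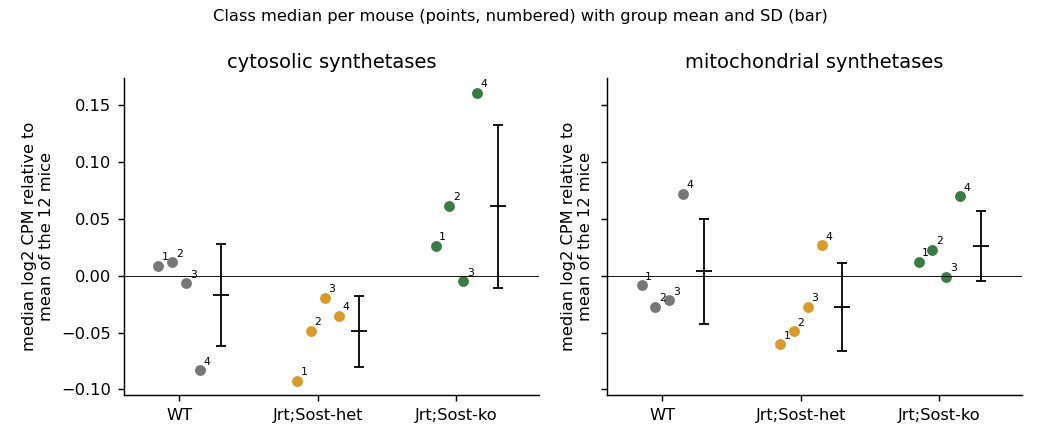
Median log2 CPM of the cytosolic (left) and mitochondrial (right) synthetases in each mouse relative to the mean of the 12 mice, with numbered points for mice and bars for the group mean and SD (n = 4). Jrt;Sost-ko mouse 4 is highest for the cytosolic class at 0.16, and for the mitochondrial class WT mouse 4 and Jrt;Sost-ko mouse 4 are highest, both at 0.07.

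Mitochondrial synthetases differed less in the *Sost* comparison, with 11 of 16 higher in Jrt;Sost-ko mice and a median log2 difference of 0.04 (range -0.09 for *Sars2* to 0.34 for *Lars2*). *Mars2*, the methionyl enzyme (chromosome 1 from 55237177 to 55248470), was the only mitochondrial member whose groups did not overlap with all mice included. *Lars2* joined it without Jrt;Sost-het mouse 3 or Jrt;Sost-ko mouse 3, and *Ears2* without Jrt;Sost-het mouse 4. With a mouse left out, groups separate more readily. *Mars2* had 30.1, 29.5, 30.0 and 30.4 CPM in Jrt;Sost-ko mice and 28.8, 24.4, 26.2 and 26.6 CPM in Jrt;Sost-het mice, a log2 difference of 0.18 (standard error 0.06). The Jrt;Sost-ko mice were almost equal, with an SD of 0.396 CPM. *Ears2*, the glutamyl enzyme, was 0.17 higher (standard error 0.11), with 6.62 to 7.94 CPM in Jrt;Sost-ko and 5.99 to 7.03 CPM in Jrt;Sost-het mice, which overlapped. The difference between the classes, as the cytosolic minus the mitochondrial median in each mouse, was 0.03 ± 0.04 in Jrt;Sost-ko, -0.02 ± 0.03 in Jrt;Sost-het and -0.02 ± 0.09 in WT mice (SD, n = 4). It ranged from -0.004 to 0.09 in Jrt;Sost-ko and from -0.06 to 0.008 in Jrt;Sost-het mice, so that the groups overlapped.

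The 3 accessory proteins differed among themselves. *Eef1e1*, a scaffold protein of the complex (chromosome 13 from 38644207 to 38659058), had 22.8, 27.0, 22.3 and 27.9 CPM in Jrt;Sost-ko mice and 20.4, 18.6, 22.1 and 19.98 CPM in Jrt;Sost-het mice. Its log2 difference of 0.30 (standard error 0.10) was larger than that of any cytosolic enzyme, and the lowest Jrt;Sost-ko mouse was just above the highest Jrt;Sost-het mouse. *Aimp1*, which binds the arginyl enzyme in the complex, differed by -0.09 (standard error 0.10), with 40.4 to 49.5 CPM in Jrt;Sost-ko and 42.3 to 54.5 CPM in Jrt;Sost-het mice. *Aimp2*, the core scaffold, had 18.1, 20.5, 22.5 and 35.3 CPM in Jrt;Sost-het mice and 26.1, 21.4, 24.7 and 22.1 CPM in Jrt;Sost-ko mice. Jrt;Sost-het mouse 4, the group's library with the most muscle RNA, was far above its group, and the log2 difference for *Aimp2* went from -0.03 (standard error 0.20) to 0.22 without it.

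In the Jrt comparison the mice differed in the collagen mutation, in *Sost* heterozygosity and in the colony. The cytosolic enzymes differed little between them, and most were slightly lower in Jrt;Sost-het mice. Of the 20, 3 were higher in Jrt;Sost-het mice, and the median log2 difference was -0.03, beside 0.004 over all 16775 tested genes. The number became 5 with the muscle covariate and without WT mouse 2 or Jrt;Sost-het mouse 1. Of the 39 members, 0 passed the threshold in edgeR, as did 0% of all genes, and DESeq2 and limma-voom called 0 members. At an unadjusted p under 0.05 there was 1 member, *Lars2*, beside 2.14% of all genes. No cytosolic group was without overlap, and *Lars2* alone was lower without overlap, beside 0.799% of all genes lower and 0.739% higher. The Jrt and the combined comparison share mice with the *Sost* comparison and are not independent of it.

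*Kars*, the lysyl enzyme, had the largest cytosolic difference. Its levels were 97.9, 94.4, 113.2 and 107.2 CPM in Jrt;Sost-het mice and 113.4, 121.8, 114.8 and 111.3 CPM in WT mice. All but Jrt;Sost-het mouse 3 were below every WT mouse, with a log2 difference of -0.15 (standard error 0.07, edgeR adjusted p = 1). *Hars* differed by -0.11 (standard error 0.09), and WT mice ranged from 97.1 to 130.8 CPM for this gene. *Tars* went the other way, with 68.2 to 71.0 CPM in Jrt;Sost-het and 62.7 to 68.7 CPM in WT mice, a log2 difference of 0.09 (standard error 0.05). All 4 Jrt;Sost-het mice were above the WT mean for *Tars*. *Iars* and *Yars*, at -0.03 and -0.02, were close to WT.

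Among the mitochondrial enzymes 8 of 16 were higher in Jrt;Sost-het than in WT mice, with a median of 0.002. It became 4 when Jrt;Sost-het mouse 4 was left out, and 5 when WT mouse 1 was. *Pars2*, the prolyl enzyme and the member with the fewest counts, had 4.91, 5.05, 4.52 and 5.09 CPM in Jrt;Sost-het mice and 6.41, 5.98, 5.02 and 5.62 CPM in WT mice, a log2 difference of -0.23 (standard error 0.12). Only WT mouse 3 lay within the Jrt;Sost-het range. *Fars2*, the phenylalanyl enzyme, differed by -0.12 (standard error 0.09) with overlapping groups. Of the accessory proteins, *Eef1e1* differed by -0.15 (standard error 0.08), *Aimp2* by -0.14 (standard error 0.24) and *Aimp1* by -0.003 (standard error 0.10), all with an edgeR adjusted p of 1.

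In the combined comparison mice likewise differ in both genes and in the colony. Of the enzymes, 16 of 20 cytosolic and 9 of 16 mitochondrial had a higher level in Jrt;Sost-ko mice. The medians were 0.11 and 0.03, beside -0.003 over all 17155 tested genes. Of the 39 members, 0 passed the threshold in edgeR, against 0.00583% of all genes, and DESeq2 and limma-voom called 0 members. At an unadjusted p under 0.05 there were 5 members, beside 3.89% of all genes. Those 5, *Iars*, *Tars*, *Yars*, *Gars* and *Mars2*, were also the members without overlap, all higher in Jrt;Sost-ko mice, beside 1.29% of all genes higher and 1.11% lower without overlap. None of these shares was tested for the list.

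*Tars*, with 62.9, 62.7, 66.2 and 68.7 CPM in WT mice against the Jrt;Sost-ko values of 72.1 to 79.6 CPM, had the largest log2 difference, 0.23 (standard error 0.06, edgeR adjusted p = 1). *Iars* differed by 0.22 (standard error 0.05), *Yars* by 0.17 (standard error 0.06), *Gars* by 0.14 (standard error 0.06) and *Mars2* by 0.21 (standard error 0.06). For each of these 5 genes all 4 Jrt;Sost-ko mice were above all 4 WT mice. Fewer mice left more members without overlap, namely 9 without Jrt;Sost-ko mouse 3, 9 without WT mice 3 and 4 and 8 without WT mouse 4. Smaller groups separate more readily, and the share of all genes without overlap was not computed with mice left out. Nothing is therefore read from these counts. *Cars* differed by 0.19 (standard error 0.09), with 3 of 4 Jrt;Sost-ko mice above the WT mean. Without WT mice 3 and 4, the mice with epidermal transcripts, the cytosolic median was 0.05 in place of 0.11, with 13 of 20 genes higher, and the mitochondrial median was 0.05. Jrt;Sost-ko mouse 4 left out gave 13 of 20 as well, with a median of 0.09.

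The 4 cytosolic enzymes that exceeded WT without overlap were all among the 5 with a TGATGNAA element in their window. Over the 5 genes with the element, the median log2 difference was 0.19 in the *Sost* comparison, 0.17 in the combined comparison and -0.03 in the Jrt comparison. Over the 8 cytosolic genes with a window but no element (*Dars*, *Eprs*, *Farsa*, *Farsb*, *Kars*, *Mars*, *Qars* and *Sars*) these medians were 0.09, 0.002 and -0.03. The 7 cytosolic genes without a window in the table (*Cars*, *Hars*, *Lars*, *Nars*, *Rars*, *Vars* and *Wars*) had 0.11, 0.06 and -0.03. Without Jrt;Sost-ko mouse 4, the medians of the *Sost* comparison were 0.17 with and 0.03 without the element. With the muscle markers as a covariate they were 0.17 and 0.05. The medians lay closer together without Jrt;Sost-ko mouse 2, at 0.15 and 0.09. They were 0.18 and 0.12 without Jrt;Sost-het mouse 3, and 0.17 and 0.11 without Jrt;Sost-het mouse 4. *Mars2*, which also exceeded WT without overlap, has no such element in its window. The element was looked for with the differences known, and the contrast between genes with and without it was not tested.

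**Figure D4:**
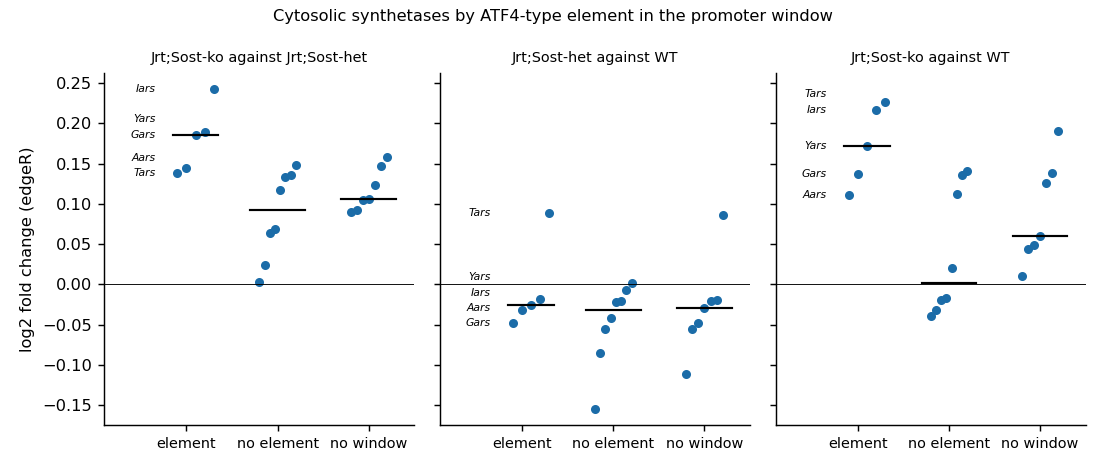
Log2 fold change of each cytosolic synthetase in the 3 comparisons, split by whether its promoter window holds TGATGNAA (5 genes, named at the left of their points), holds none (8) or is not in the table (7), with lines at the medians. With the element the medians are 0.19, -0.03 and 0.17 from left to right, and without it 0.09, -0.03 and 0.002.

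*Lars2*, the mitochondrial leucyl enzyme (ENSMUSG00000035202, chromosome 9 from 123366927 to 123462666, plus strand), stood apart from all other members by its spread. It had 100.3, 95.4, 575.1 and 204.7 CPM in WT mice, 72.2, 83.5, 90.2 and 80.9 CPM in Jrt;Sost-het mice and 116.3, 118.3, 87.1 and 90.8 CPM in Jrt;Sost-ko mice. WT mouse 3 was 2.81 times above the next mouse, WT mouse 4. The log2 difference between Jrt;Sost-het and WT mice was -1.58 (standard error 0.55, edgeR adjusted p = 1), with all 4 Jrt;Sost-het mice below all WT mice. It was -0.70 without WT mouse 3 and -0.24 without WT mice 3 and 4. Against WT, Jrt;Sost-ko mice differed by -1.23 (standard error 0.55), which became -0.37 without WT mouse 3 and turned to 0.08 without WT mice 3 and 4. In the *Sost* comparison, which involves no WT library, *Lars2* was 0.34 higher (standard error 0.12), where Jrt;Sost-ko mice 3 and 4 lay within or next to the Jrt;Sost-het range.

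After the level of *Lars2* in WT mouse 3 had been seen, every gene with at least 5 CPM in this mouse was screened for a level over 2 times that of each other mouse. Of 11879 genes, 2 met this, *Lars2* and *Gm15564*. *Gm15564* (ENSMUSG00000086324) is annotated as an antisense gene on the minus strand of chromosome 16 from 35966752 to 35983230, and so does not overlap *Lars2*. It had 67.3 CPM in WT mouse 3 and at most 2.63 CPM in any other mouse, 25.6 times less, with 2991 counts against 28 to 104. Epidermal markers and muscle markers summed to 118 and 13515 CPM in WT mouse 3, and to 561 and 32522 CPM in WT mouse 4. In WT mouse 4, *Lars2* had 204.7 CPM and *Gm15564* 2.63 CPM. Counts do not show where in *Lars2* and *Gm15564* the reads fell. The part of epidermal and muscle transcripts in the level of *Lars2* was not tested.

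**Figure D5:**
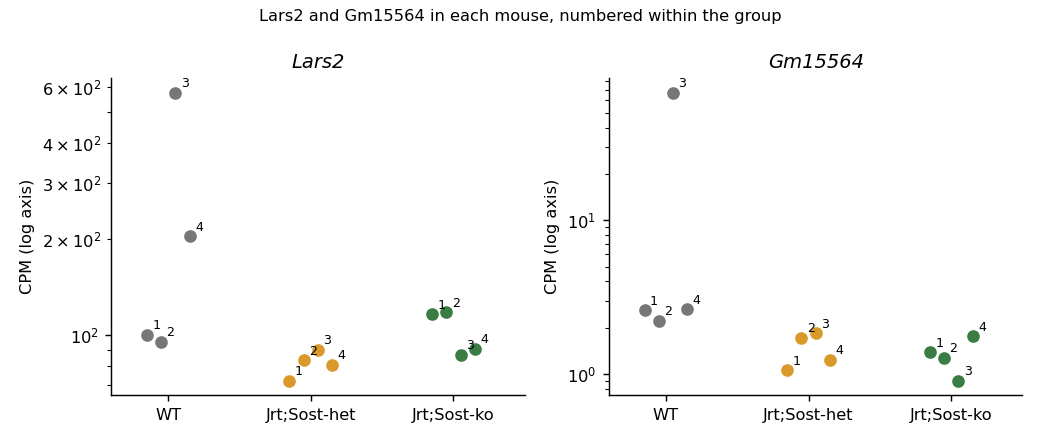
CPM of *Lars2* (left) and *Gm15564* (right) on log axes, with a numbered point for each of the 4 mice of each group. WT mouse 3 lies at 575 and 67.3 CPM, above all other mice for both genes, and WT mouse 4 at 204.7 CPM is second for *Lars2*.

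Because muscle RNA differed so widely between libraries, a slope of each gene on the mean log2 level of the 16 muscle markers was fitted over the 12 mice with the group in the model. Of 17245 genes, 2484 or 14.4% passed an adjusted p under 0.05 in edgeR, and 782 without WT mouse 2 and 1168 without WT mouse 4. Of the members, *Hars* and *Vars* did. *Hars* fell by 0.05 on the log2 scale for each doubling of the markers (standard error 0.01, edgeR adjusted p = 0.0113), and *Vars* by 0.04 (standard error 0.01, edgeR adjusted p = 0.0457). The call of *Hars* was lost without Jrt;Sost-ko mouse 4 (adjusted p = 0.064), when *Aimp1* and *Aimp2* were called, and *Vars* was lost with any 1 mouse left out (adjusted p from 0.0509 to 0.19). *Dars* was called without Jrt;Sost-het mouse 1 or 3. The slopes of *Iars*, *Gars*, *Tars* and *Yars* were between -0.0075 and -0.0005, with adjusted p from 0.536 to 0.975.

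Most listed genes of the wider ATF4 amino acid response had a higher fitted level in Jrt;Sost-ko mice, but none passed the threshold and the list was not tested. Of 31 listed genes 30 had enough counts. Against Jrt;Sost-het mice 26 of them were higher (median 0.14, range -0.70 to 0.72, 0 without overlap). Of all genes in that comparison, 50.4% were higher, 1.79% without overlap. Against WT mice 23 were higher (median 0.17), 2 of them without overlap. Of all genes in that comparison, 49.1% were higher, 1.29% without overlap. In Jrt;Sost-het mice 18 were higher than in WT mice (median 0.04), beside 51.3% of all genes. In each comparison edgeR called 0 of the 30. *Mthfd2*, the mitochondrial enzyme of one-carbon metabolism, had 63.3, 90.6, 59.3 and 65.4 CPM in Jrt;Sost-ko mice and at most 56.9 CPM in WT mice, a log2 difference of 0.37 (standard error 0.13). *Aldh18a1*, which starts proline synthesis from glutamate, had 64.9, 70.3, 67.3 and 63.1 CPM in Jrt;Sost-ko mice and at most 61.4 CPM in WT mice, 0.17 higher (standard error 0.05). Against Jrt;Sost-het mice both overlapped, with log2 differences of 0.31 and 0.18.

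The transcript of ATF4 itself had 188.3, 239.2, 195.5 and 200.9 CPM in Jrt;Sost-ko mice, 183.2 to 193.7 CPM in Jrt;Sost-het mice and 180.5 to 189.8 CPM in WT mice, with Jrt;Sost-ko mouse 2 above the rest. The same mouse was highest for *Mthfd2*, for *Asns*, the asparagine synthetase, at 104.4 CPM, and for *Trib3*, a feedback inhibitor of the pathway, at 5.56 CPM against at most 2.75 CPM in any other mouse. For *Iars*, *Gars*, *Yars* and *Tars* it was the highest Jrt;Sost-ko mouse as well, for *Tars* narrowly, with 79.6 CPM against 79.2 CPM in mouse 4. It was also the highest of its group for *Aars*, *Cars*, *Nars* and *Sars*, of which *Sars* has a window without the element. Among mitochondrial enzymes it was highest for *Ears2*, *Hars2*, *Lars2*, *Nars2* and *Rars2*. For *Vars* and *Mars2* it was the lowest Jrt;Sost-ko mouse, at 207.3 and 29.5 CPM. The same held for *Eprs*, *Kars*, *Qars* and *Wars*, and for *Aars2*, *Fars2*, *Iars2*, *Sars2*, *Tars2* and *Vars2*. How these levels go together was not tested. *Atf3*, a stress-induced transcription factor, was 0.72 higher than in Jrt;Sost-het and 0.88 higher than in WT mice, with 18.2 CPM in Jrt;Sost-ko mouse 1 and at most 5.53 CPM in any other mouse. *Cth*, which makes cysteine, differed by -0.70 from Jrt;Sost-het mice at levels of at most 1.53 CPM. *Gdf15*, a secreted stress hormone, differed by -0.61 between Jrt;Sost-het and WT mice at levels of at most 1.67 CPM. *Gpt2*, an alanine transaminase, differed by 0.39 in the same comparison, with 14.3 to 40.5 CPM in Jrt;Sost-het and 6.15 to 34.01 CPM in WT mice, and *Trib3* differed by 0.69 between Jrt;Sost-ko and WT mice.

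Other genes of translation gave no call in any list. Over all tested genes, 50.4%, 51.3% and 49.1% were higher in the *Sost*, the Jrt and the combined comparison. Those higher without overlap made up 1.79%, 0.739% and 1.29%. One list held 8 genes, for eIF2 kinases, their activator, phosphatase subunits and, with *Eif2s1*, a subunit of eIF2 itself. Of these, 7 were higher in the *Sost* comparison (median 0.10), led by *Eif2ak2* at 0.16 and *Ppp1r15b* at 0.15. Between Jrt;Sost-het and WT mice 3 of 8 were higher, with *Ppp1r15a* at -0.11 and *Eif2s1* at -0.10. Between Jrt;Sost-ko and WT mice 5 of 8 were higher, with *Eif2ak2* at 0.18 and *Gcn1l1*, which activates the eIF2 kinase GCN2, at 0.13 without overlap. Of 9 cytosolic elongation factor genes, 7 were higher in the *Sost* comparison (median 0.08), while 9 of 9 were lower in Jrt;Sost-het than in WT mice (median -0.12). Between Jrt;Sost-ko and WT mice 2 of 9 were higher. *Eef1a2*, the elongation factor form of muscle and neurons, differed by -0.88 and -0.89 from Jrt;Sost-het and WT mice in Jrt;Sost-ko mice, with a range over mice from 0.522 to 151.5 CPM. *Eif5a2* differed by 0.17 in the *Sost* and by -0.17 in the Jrt comparison. *Eef1b2* differed by -0.15 in the Jrt and by -0.07 in the combined comparison. *Eef1g* differed by -0.14 in the Jrt comparison and was lower without overlap, beside 0.799% of all genes.

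Of 21 genes that act beside the mitochondrial synthetases, 11 were higher in the *Sost*, 9 in the Jrt and 13 in the combined comparison, with medians of 0.002, -0.007 and 0.03. *Pus1*, which makes pseudouridine in tRNA, was 0.25 higher (standard error 0.07) in the *Sost* comparison. *Elac2*, which trims the 3′ end of tRNA precursors, was 0.12 higher (standard error 0.06). Both were without overlap, beside 1.79% of all genes. *Trmu*, a thiouridylase of mitochondrial tRNA, differed by -0.15 in the same comparison. *Mtfmt*, which formylates the initiator tRNA, and *Qrsl1*, a subunit of the enzyme that makes glutaminyl-tRNA in mitochondria, were 0.23 and 0.16 higher in Jrt;Sost-het than in WT mice. In Jrt;Sost-ko mice they were 0.16 and 0.17 higher than in WT mice, *Mtfmt* without overlap, beside 1.29% of all genes. Among 8 other genes of tRNA charging and editing, 4, 3 and 4 were higher in the *Sost*, the Jrt and the combined comparison. *Sepsecs* was 0.09 higher without overlap in the *Sost* comparison. The largest differences were *Aarsd1* at 0.14 and *Pstk* at -0.13 in the *Sost*, *Dtd1* at -0.18 and *Aarsd1* at -0.14 in the Jrt, and *Dtd1* at -0.21 and *Tarsl2* at -0.17 in the combined comparison.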

How the data were processed

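RNA was measured in the tibia shafts of 12 male mice (3 groups, n = 4). Per the study's methods the shafts were flushed of marrow and sequencing was paired-end. Poly(A) RNA was enriched, per the labels. The authors aligned the reads to GRCm38 with STAR and deposited raw counts per Ensembl gene, as whole numbers without normalization. The submitters' processing notes name bcl2fastq 2.20, STAR, Cufflinks, Cuffdiff and DESeq. The counting tool, its strand setting and the annotation release are not given in the sources used here, so reads of overlapping and antisense genes may not have been separated. *Hars* and *Hars2* overlap on opposite strands of chromosome 18. The deposited comparison tables of the authors hold their own fold changes and p-values and were not used, nor were the single-mouse count files, which repeat the matrix.

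For each comparison the 8 mice concerned were fitted separately with edgeR 4.0.16 under R 4.3.3 (filterByExpr, TMM, glmQLFit and glmQLFTest with default settings), two-sided, with Benjamini-Hochberg adjustment over all tested genes and a threshold of 0.05. Standard errors were derived from the F statistic. Levels are CPM scaled by TMM over the 12 libraries, with a prior count of 2 on the log2 scale, and CPM per kilobase used the union of exons in GENCODE M21 (GRCm38). Groups come from the labels. Nothing in the labels names litters or batches, and p-values measure the spread between these mice. Each library held at least 24366061 counted reads. The precision of a group value rests on its 4 mice and on the counts of the gene, as few as 113 for *Pars2*. The functions were tested on simulated counts. Exact permutation tests of single members against WT had been planned and are not printed, because the members were named by the size of their differences.

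The members and the gene lists were chosen with earlier results of these data known. All members enter by counts and ranges. Named with values are members without overlap in the *Sost* comparison, the 3 largest absolute differences of each class per comparison, the accessory proteins, *Iars*, the 2 highest and lowest of each class per length, members past the threshold and the 2 largest differences of each list. Others named, such as *Qars*, *Dars*, *Aars*, *Mthfd2*, *Aldh18a1*, *Atf4*, *Asns*, *Gm15564* and *Gcn1l1*, were chosen after their values were seen. As alternatives, scaling used upper quartiles, the size factors of DESeq2 or TMM without muscle, erythroid and neutrophil markers, and the test was that of DESeq2 1.42.0 or limma-voom (limma 3.58.1, quality weights). Further alternatives were no filter, a minimum of 10 counts per mouse, 1 fit of all 12 mice, the muscle markers as a covariate, no WT mice 3 and 4, and each mouse left out in turn. The muscle slope, the promoter search and the screen in WT mouse 3 were added after the data had been seen. A further match of the TGATGNAA element in the members' windows is not reported here. Protein sequences were not used here.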

Additional observations from a re-analysis of the deposited data

Results flagged for a closer look

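Among 117 groups of 4 mice (39 members in 3 groups), 4 had a highest or lowest mouse whose gap to its neighbour, divided by the range of the 4 values, was above Dixon's critical value for 4 samples. Chance flags about 1 in 20 groups, which is 5.85 of 117. *Hars2*, the mitochondrial histidyl enzyme, had 36.4 CPM in WT mouse 1 and 30.0 to 30.9 CPM in the other WT mice (gap over range 0.863). It also had 35.6 CPM in Jrt;Sost-ko mouse 2 and 31.8 to 32.4 CPM in the others (0.850). *Sars2*, the mitochondrial seryl enzyme, had 13.7 CPM in WT mouse 1 and 15.4 to 15.7 CPM in the other WT mice (0.873). *Farsb*, a subunit of the cytosolic phenylalanyl enzyme, had 52.6 CPM in Jrt;Sost-ko mouse 4, the library with the least muscle RNA, and 44.2 to 45.1 CPM in the others (0.888). Its slope on the muscle markers over the 12 mice was -0.014 (standard error 0.011, edgeR adjusted p = 0.426). *Lars2* in WT mice was not past this value, since WT mouse 4 lay between mouse 3 and the rest.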

How the results depend on the processing

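No paired analysis was possible because the labels give no replicate numbers shared between the groups. Over the alternatives (9 for the *Sost* comparison, 10 for the others) and with each mouse left out, the cytosolic median stayed above 0 in the *Sost* (0.09 to 0.16) and the combined comparison (0.05 to 0.13) and lay between -0.05 and -0.02 in the Jrt comparison. The number of all genes called in the *Sost* comparison was 1, with 15 in DESeq2, 0 in limma-voom and 0 with the muscle covariate, and 0 to 3 with a mouse left out. Of the members, DESeq2 called 1, *Iars*, at a log2 difference of 0.24. The combined comparison gave 1 gene, with 14 in DESeq2, 2 in limma-voom, 2 without a filter and 0 to 2 with a mouse left out.

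Small differences of the Jrt comparison turned sign. Without WT mice 3 and 4, *Iars* became 0.0040, *Aimp1* 0.10 and *Aimp2* 0.14, and *Vars* became 0.046 with the muscle covariate. With a mouse left out, the ranges were -0.047 to 0.0033 for *Iars*, -0.11 to 0.051 for *Vars*, -0.076 to 0.055 for *Aimp1*, -0.39 to 0.0074 for *Aimp2* and -0.0051 to 0.077 for *Mars2*. In the combined comparison without WT mice 3 and 4, *Vars* became -0.027, *Lars2* 0.082, *Aimp1* 0.0064 and *Aimp2* 0.093. Apart from the settings named, the cause was not tested. The SD between mice of the cytosolic median was 0.059 on the log2 scale, pooled over the groups of 4. Counting error, which is largest for *Pars2* with as few as 113 counts, was not separated from the spread between mice.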
